A study of Mus musculus with 30 samples.

Results

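The genes described here are Spink1, Car4, Dpp4, S100g, Zbtb16 and Barx1, 6 of the 54134 rows of a count table of mouse embryonic stem cells (ESCs) on their way to neuromesodermal progenitors (NMPs). They were chosen by the measured fold change of Nr6a1-/- over wildtype cells, as genes with the largest falls, so that difference is given below as a description, without a test. All 6 passed the filter on low counts that left 12149 genes for testing, but Barx1 and Dpp4 passed it through wildtype groups alone, so that passing is itself no result. The list was offered as non-developmental genes, and 2 of its 6 genes do not answer to that name: Barx1 is a homeobox transcription factor of stomach mesenchyme and the face, and Zbtb16, also known as PLZF, is a zinc finger repressor of limb and axial skeleton patterning. They are therefore called the 6 strongly lost genes.

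RNA came from 30 libraries in 10 groups of 3 replicates, with 5 stages for wildtype and 5 for Nr6a1-/- cells of the Bruce4 line. All cells were given FGF2 from the start. At d2 they had been given nothing else, at d2.5, d3 and d4 they had also been given the Wnt pathway agonist CHIR99021 since d2, and d4G cells had in addition been given the growth factor Gdf11 from d3 to d4. The Nr6a1-/- cells were 1 ESC clone with CRISPR/Cas9 deletions in exon 4, so that line and genotype are the same split, and the ESCs of both lines were grown on fibroblast feeders that were removed before differentiation. The index sequences in the labels are the same for wildtype d4 and wildtype d4G libraries. Those of Nr6a1-/- d4 replicate 1 and replicates 2 and 3 recur in Nr6a1-/- d4G and Nr6a1-/- d3, respectively. The study's methods add the index before pooling, so these libraries came from different pools, which are not given. Pool and step therefore cannot be told apart in these comparisons.

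Nr6a1, also known as GCNF, is an orphan nuclear receptor that acts mainly as a repressor in early embryos and binds a direct repeat of the nuclear receptor half-site. NMPs are progenitors at the caudal end of the embryo from which spinal cord and mesoderm both arise, and Gdf11 is a secreted factor that drives the switch from trunk to tail. The 6 genes have unrelated products. Spink1 is a secreted Kazal-type inhibitor of trypsin, Dpp4 (CD26) is a membrane peptidase that removes dipeptides from protein ends, Car4 is a carbonic anhydrase anchored to the outside of the membrane, and S100g (calbindin D9k) is a cytosolic calcium-binding protein of intestine, kidney and uterus. Spink1, Dpp4 and Car4 are also known from gut and other epithelia.

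Each gene lies on a chromosome of its own (GENCODE M21, GRCm38, counted from 1). Car4 is at chr11:84957786-84966044 (plus strand), Dpp4 at chr2:62330073-62412231 (minus), S100g at chrX:162961992-162964599 (minus), Zbtb16 at chr9:48654297-48836222 (minus) and Barx1 at chr13:48662998-48666507 (plus). Nr6a1 itself is at chr2:38723370-38927688, on the chromosome of Dpp4. S100g lies inside Ctps2, which is read from the opposite strand, and Dpp4 overlaps the antisense gene Gm13561. Whether counting used strand is not given, so reads of such a pair cannot be told apart. Gm13561 had 1 count in wildtype d2.5 and 0 in every other group. Ctps2 had 25.4 ± 7.92 CPM (counts scaled to the library total and TMM factor) in wildtype d4 and 44.4 ± 7.97 in Nr6a1-/- d4 (SD, n = 3), opposite in direction to S100g.

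RefSeq promoters (GRCm38.p6, 250 bases before to 50 after the start of the gene) were at hand for 4 of the 6 genes and are shown because the deleted receptor is a DNA-binding protein and because Gdf11, given in the last step, signals through Smad proteins. Capitals mark matches to any motif searched: the half-site AGGTCA, the same 6 letters repeated directly with no base between, the extended half-site TCAAGGTCA, and the Smad letters GTCTAGAC and CAGACA, each on both strands. The half-site is contained in both longer nuclear receptor motifs. The windows are chrX:162964550-162964849 (minus strand) for S100g, chr2:62412182-62412481 (minus) for Dpp4, chr11:84957504-84957803 (plus) for Car4 and chr13:48662786-48663085 (plus) for Barx1.
S100g: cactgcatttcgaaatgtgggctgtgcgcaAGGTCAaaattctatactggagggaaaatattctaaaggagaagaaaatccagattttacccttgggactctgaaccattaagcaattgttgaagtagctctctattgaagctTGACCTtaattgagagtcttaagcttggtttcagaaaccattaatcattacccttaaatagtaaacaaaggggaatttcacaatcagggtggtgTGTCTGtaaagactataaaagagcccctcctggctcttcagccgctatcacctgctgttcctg
Dpp4: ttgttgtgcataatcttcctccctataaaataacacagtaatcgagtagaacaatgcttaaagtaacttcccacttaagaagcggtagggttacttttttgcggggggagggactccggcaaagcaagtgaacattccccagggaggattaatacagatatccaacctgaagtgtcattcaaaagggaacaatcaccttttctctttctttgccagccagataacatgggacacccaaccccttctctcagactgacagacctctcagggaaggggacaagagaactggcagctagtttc
Car4: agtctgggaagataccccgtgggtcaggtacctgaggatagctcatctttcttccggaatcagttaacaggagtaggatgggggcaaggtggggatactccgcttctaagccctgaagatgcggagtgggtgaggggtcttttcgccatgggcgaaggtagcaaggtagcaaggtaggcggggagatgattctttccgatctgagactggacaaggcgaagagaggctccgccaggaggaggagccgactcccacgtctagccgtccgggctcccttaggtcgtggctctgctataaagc
Barx1: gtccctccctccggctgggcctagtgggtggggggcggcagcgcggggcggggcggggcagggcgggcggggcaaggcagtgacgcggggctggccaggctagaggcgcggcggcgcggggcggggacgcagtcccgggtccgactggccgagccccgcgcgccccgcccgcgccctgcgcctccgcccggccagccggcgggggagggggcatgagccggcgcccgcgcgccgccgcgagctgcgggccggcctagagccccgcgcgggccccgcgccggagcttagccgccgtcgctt
The S100g window held the half-site at -220 as AGGTCA and at -107 in reverse as TGACCT, and the Smad letters at -13 in reverse as TGTCTG, counted from the start of the gene. The Dpp4, Car4 and Barx1 windows held no match to these letters. Among 32851 promoters of the same length, 16.3% held the half-site, 0.0061% its direct repeat, 0.423% the extended half-site, 0.213% GTCTAGAC and 21.0% CAGACA. A match is a description of letters only. The windows also differed in base composition, with a GC content of 41.0% for S100g, 45.3% for Dpp4, 57.3% for Car4 and 84.7% for Barx1, beside a median of 52.7% over all promoters.

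Total counts per library ran from 1570714 to 3688197, so that 3 counts, the most that a count of 0 allows, were 0.829 to 1.91 CPM. Wildtype d4 replicate 2 stood apart. The summed level of 7 epiblast and pluripotency markers was 556 CPM there, beside 85.4 and 88.6 CPM in the other wildtype d4 libraries. Calls of the strongly lost genes between wildtype stages are given with and without that library where they change. The same holds for the d4 counts of called neural, paraxial mesoderm and epiblast markers. Calls of endoderm markers, families and neighbours at d4, the ranks and the shares of all genes are given with that library only. Nr6a1 counts do not check the genotype labels, because reads came from the 3′ end and the deletion is in an internal exon. Nr6a1 was at 97.6 ± 1.59 CPM in wildtype d4 and 223 ± 33.0 CPM in Nr6a1-/- d4 (SD, n = 3). The NMP markers T, Sox2, Nkx1-2, Cdx2, Wnt3a, Fgf8 and Cyp26a1 summed to 784 ± 20.3 CPM in wildtype d3 and 1064 ± 74.5 CPM in Nr6a1-/- d3. These are bulk samples, in which fewer cells of a type and less RNA per cell cannot be told apart.

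Spink1, at chr18:43728082-43737557 on the minus strand, had the largest fold change of the 6 genes at d2. It rose in wildtype cells through the Wnt step and was low in Nr6a1-/- cells at every stage. The wildtype libraries held 25.4, 31.9 and 22.7 CPM in d2 cells, 41.9, 46.2 and 42.5 in d2.5 cells, 65.2, 61.7 and 70.0 in d3 cells, 102, 58.6 and 97.6 in d4 cells and 28.4, 19.5 and 32.0 in d4G cells. The Nr6a1-/- libraries held 2.35, 2.62 and 3.79 CPM in d2 cells, 5.75, 3.15 and 8.23 in d2.5 cells, 3.61, 5.13 and 2.98 in d3 cells, 3.03, 0.968 and 0.426 in d4 cells and 0.481, 3.18 and 0.429 in d4G cells. No Nr6a1-/- library reached any wildtype library of its stage. The log2 fold change (Nr6a1-/- over wildtype, ± SE) was -3.13 ± 0.353 at d2, -4.07 ± 0.291 at d3 and -5.79 ± 0.341 at d4. At d4 the pooled counts were 772 and 10, a ratio of 56.1 (95% counting interval 30.4 to 118) in favour of wildtype.

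Dpp4 followed the course of Spink1 at a lower level. Wildtype libraries held 12.7, 7.97 and 12.4 CPM in d2 cells, 21.4, 17.8 and 18.7 in d2.5 cells, 28.5, 25.3 and 24.4 in d3 cells, 37.9, 37.0 and 34.5 in d4 cells and 20.5, 18.3 and 14.3 in d4G cells. Nr6a1-/- libraries held 4.71, 4.12 and 3.79 CPM in d2 cells, 3.45, 3.50 and 1.79 in d2.5 cells, 3.61, 1.71 and 2.98 in d3 cells, 0.866, 0.484 and 1.28 in d4 cells and 1.44, 2.55 and 1.72 in d4G cells. The groups did not overlap at any of the 5 stages. The log2 fold change grew from -1.42 ± 0.266 at d2 to -2.71 ± 0.258 at d2.5 and -5.27 ± 0.298 at d4, where the pooled ratio was 40.7 (18.5 to 112).

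Car4 was the only one of the 6 genes in which all 3 Nr6a1-/- libraries lay above all 3 wildtype libraries at d2. Its wildtype libraries held 128, 100.4 and 104 CPM in d2 cells, 46.2, 53.3 and 51.1 in d2.5 cells, 56.0, 51.6 and 51.6 in d3 cells, 97.2, 101 and 89.2 in d4 cells and 65.1, 59.3 and 46.8 in d4G cells. Its Nr6a1-/- libraries held 153, 163 and 153 CPM in d2 cells, 28.4, 28.0 and 29.0 in d2.5 cells, 5.62, 4.28 and 4.09 in d3 cells, 1.30, 2.42 and 0.426 in d4 cells and 7.70, 13.4 and 9.87 in d4G cells. The order of the genotypes turned over between d2 and d2.5. The log2 fold change went from 0.49 ± 0.110 at d2 to -0.82 ± 0.143 at d2.5, -3.49 ± 0.198 at d3 and -6.11 ± 0.234 at d4. With 886 pooled wildtype counts against 9, the d4 ratio of 71.6 (37.5 to 157) was the largest pooled ratio of the 6 genes at d4, and its interval overlapped those of Spink1 and Dpp4.

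S100g was close to the floor at d2 whatever the genotype and became the most abundant of the 6 genes in wildtype d4 cells in CPM, a scale not adjusted for length. Wildtype libraries held 1.75, 3.72 and 0.688 CPM in d2 cells, 7.62, 9.65 and 11.6 in d2.5 cells, 56.0, 53.4 and 59.6 in d3 cells, 212, 149 and 208 in d4 cells and 189, 176 and 155 in d4G cells. Nr6a1-/- libraries held 0.941, 1.12 and 0.759 CPM in d2 cells, 4.22, 2.45 and 4.29 in d2.5 cells, 8.83, 3.85 and 7.81 in d3 cells, 7.80, 23.2 and 2.13 in d4 cells and 5.77, 10.8 and 3.43 in d4G cells. The genotypes overlapped at d2 and were apart from d2.5 onward. The log2 fold change was -1.39 ± 0.506 at d2.5 and -3.02 ± 0.320 at d3. It was -4.14 ± 0.267 without and -4.79 ± 0.306 with Gdf11, with a pooled ratio of 28.0 (20.2 to 39.9) in the latter. Nr6a1-/- d4 replicate 2 was the highest of its group, and the d4 value was -5.25 without it and -3.63 without Nr6a1-/- d4 replicate 3.

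Zbtb16 also came on in Nr6a1-/- cells, between d3 and d4, after it had risen in wildtype cells. Wildtype libraries held 0, 1.06 and 0.688 CPM in d2 cells, 2.86, 3.56 and 1.01 in d2.5 cells, 14.97, 14.3 and 14.4 in d3 cells, 29.6, 34.0 and 26.7 in d4 cells and 18.6, 20.7 and 19.8 in d4G cells. Nr6a1-/- libraries held 0.941, 1.498 and 1.14 CPM in d2 cells, 0.767, 1.40 and 1.07 in d2.5 cells, 1.20, 1.71 and 0 in d3 cells, 13.9, 7.26 and 9.80 in d4 cells and 8.18, 3.18 and 6.01 in d4G cells. The genotypes overlapped at d2 and d2.5, and were apart at d3, d4 and d4G. The log2 fold change was -3.89 ± 0.429 at d3, but -1.53 ± 0.236 at d4 and -1.71 ± 0.293 at d4G, with pooled ratios of 15.6 (7.30 to 39.8), 2.91 (2.23 to 3.84) and 3.28 (2.26 to 4.88).

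Barx1 was detected above the floor mainly in wildtype d4G cells. Wildtype libraries held 1.31, 0 and 1.03 CPM in d2 cells, 2.86, 3.05 and 0.506 in d2.5 cells, 0.965, 0.921 and 0.400 in d3 cells, 2.62, 3.04 and 3.30 in d4 cells and 18.6, 16.2 and 12.6 in d4G cells. Nr6a1-/- libraries held 0.471, 0.374 and 0.759 CPM in d2 cells, 1.15, 1.05 and 1.07 in d2.5 cells, 0.803, 0.855 and 0 in d3 cells, 0, 0.968 and 0.426 in d4 cells and 1.44, 0 and 0.429 in d4G cells. The genotypes were apart at d4 and d4G only, and no fold is given at d2 and d3, where both averaged at most 3 counts a library. The pooled counts were 28 and 3 at d4, a ratio of 6.79 (2.10 to 34.9), and 110 and 4 at d4G, a ratio of 23.5 (8.94 to 88.0).

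**Figure D1:**
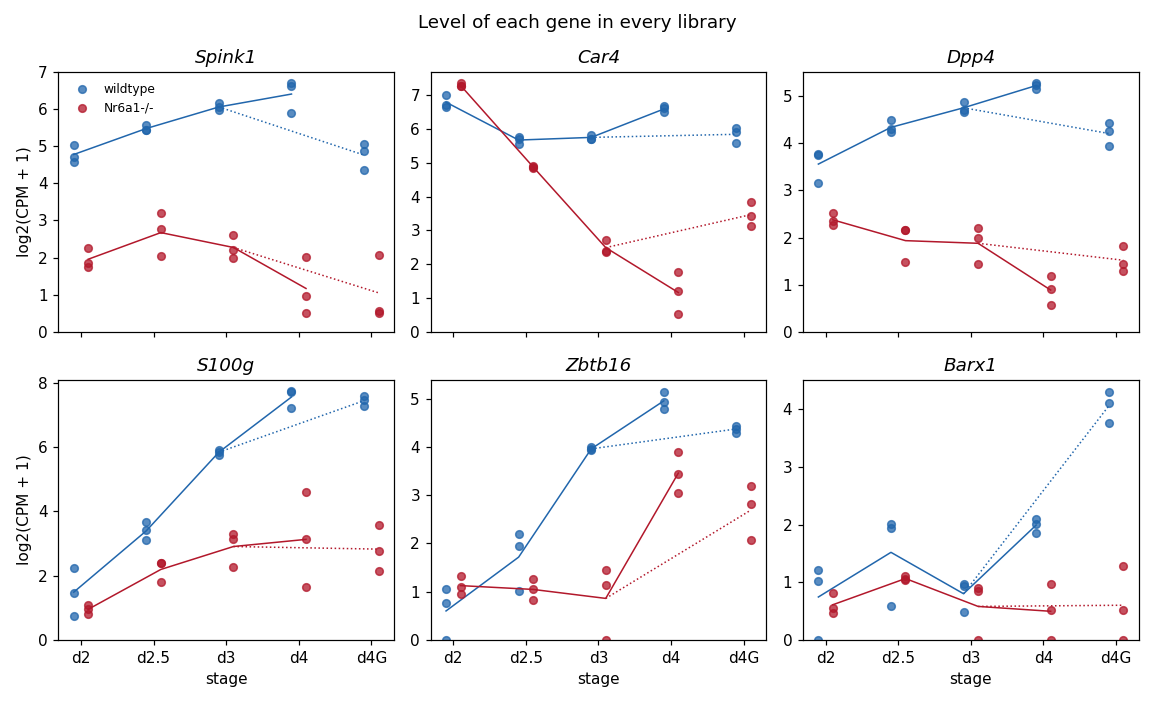
Level of each of the 6 genes as log2(CPM + 1) on the vertical axis against stage, with 1 point per library (wildtype blue, Nr6a1-/- red). Solid lines join group means from d2 to d4 and dotted lines join d3 to d4G. Nr6a1-/- libraries lie below wildtype libraries at d4 and d4G in all 6 panels, while Car4 starts higher in Nr6a1-/- cells at d2.

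All 3 Nr6a1-/- libraries lay below all 3 wildtype libraries for 2, 4, 5, 6 and 6 of the 6 genes in stage order from d2 to d4G. The same was seen for 10.8%, 12.7%, 14.3%, 14% and 12.3% of the 12149 tested genes, and since this contrast chose the 6 genes nothing is read from the difference. The median log2 fold change of the 6 genes was -4.71 at d4 and -3.83 at d4G, beside 0.02 and 0.01 over all tested genes. Among the 8506 genes that averaged 10 CPM or more in either genotype at d3, Spink1 had the lowest fold change, Zbtb16 was at place 3, Car4 at place 4, Dpp4 at place 5 and S100g at place 8. At d4 Car4 was at place 1 of 8501, Spink1 at place 3, Dpp4 at place 4 and S100g at place 6, while Zbtb16 was at place 91. At d4G S100g was at place 2, Barx1 at place 3 and Spink1 at place 4 of 8532, Dpp4 at place 12, Car4 at place 27 and Zbtb16 at place 62.

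**Figure D2:**
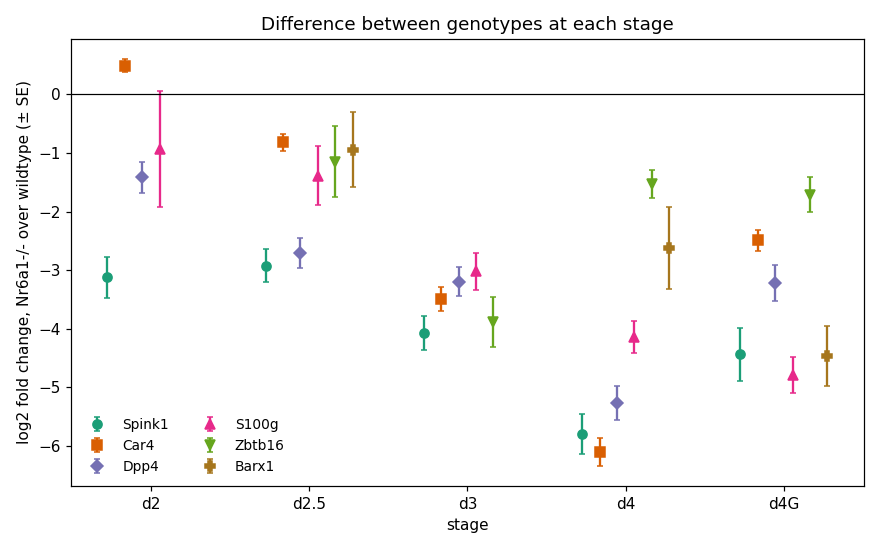
Log2 fold change of Nr6a1-/- over wildtype (vertical axis, ± SE) for each gene at each stage, without Zbtb16 at d2 and Barx1 at d2 and d3, where both groups averaged at most 3 counts a library. Spink1 is at -3.13 by d2, Car4 passes from 0.49 to -6.11 between d2 and d4, and Zbtb16 goes from -3.89 at d3 to -1.53 at d4.

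Changes within a genotype were not the contrast that chose the genes, although they share its libraries, and were tested with edgeR's quasi-likelihood test at a false discovery rate (FDR) below 0.05 over all 12149 genes. Genes chosen for higher levels in wildtype than in Nr6a1-/- cells are favoured to rise in wildtype cells and to fall in Nr6a1-/- cells. Those chosen by their d4 difference are likewise favoured to lie closer at d4G. Barx1 also passed the filter only through wildtype d4 and d4G. The shares of all genes count calls in either direction, and nothing is read from the counts of called genes against them. In wildtype cells, 4 of the 6 genes rose and 1 fell in the step from d2 to d2.5, in which 25.4% of all tested genes were called. S100g rose by 2.35 ± 0.611 on the log2 scale (edgeR FDR 0.00388), Dpp4 by 0.78 ± 0.205 (FDR 0.00425) and Spink1 by 0.73 ± 0.223 (FDR 0.0141). Car4 fell by 1.14 ± 0.125 (edgeR FDR 6.95e-09). The Zbtb16 rise rested on 4 and 15 pooled counts in libraries that overlapped (log2 fold change 2.04 ± 0.725, edgeR FDR 0.0354). It was not called without d2 replicate 1, d2 replicate 3, d2.5 replicate 1 or d2.5 replicate 2 of wildtype (edgeR FDR 0.0757 to 0.153), nor was Spink1 without d2 wildtype replicate 3 (edgeR FDR 0.0880).

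From d2.5 to d3 in wildtype cells, 3 of the 6 genes rose and none fell, in a step with 11.5% of all genes called. S100g rose by 2.55 ± 0.316 (edgeR FDR 2.43e-07) and Zbtb16 by 2.53 ± 0.373 (edgeR FDR 6.34e-06). Spink1 rose by 0.59 ± 0.199 at an edgeR FDR of 0.0466, and the call was lost when any 1 of the 6 libraries compared was left out (edgeR FDR 0.0673 to 0.142). The values of Car4 and Dpp4 were 0.08 ± 0.135 and 0.43 ± 0.181, both short of the threshold.

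From d3 to d4 in wildtype cells, 5 of the 6 genes rose, beside 21.1% of all genes called in either direction. The rises were 1.74 ± 0.206 for S100g (edgeR FDR 4.28e-08), 0.85 ± 0.122 for Car4 (FDR 1.54e-06), 1.05 ± 0.223 for Zbtb16 (FDR 5.76e-04), 0.49 ± 0.157 for Dpp4 (FDR 0.0235) and 1.95 ± 0.633 for Barx1 (FDR 0.0242). Spink1 was at 0.38 ± 0.179 with an edgeR FDR of 0.135, and without d4 wildtype replicate 2, which held its lowest d4 value, at 0.61 with an FDR of 0.00964. Dpp4 was not called without that library (edgeR FDR 0.0538), without d4 replicate 1 (0.0699), or without d3 replicate 2 or 3 (0.0784 and 0.106). Barx1 was not called without d3 replicate 2 or 3 or d4 replicate 3 (edgeR FDR 0.0521 to 0.123), so that the calls of both genes turned on single libraries.

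In Nr6a1-/- cells the same steps called 1, 1 and 3 of the 6 genes, and the differences between genotypes in these steps were not tested. From d2 to d2.5, 1 gene fell, Car4, by 2.45 ± 0.126 (edgeR FDR 7.32e-18, with 24.1% of all genes called), a gene that also fell in wildtype cells. From d2.5 to d3, Car4 again fell by 2.60 ± 0.214 (edgeR FDR 1.12e-11, with 15.9% of all genes called), in a step in which it did not pass the threshold in wildtype cells. From d3 to d4, with 25.9% of all genes called, Car4 fell by 1.76 ± 0.428 (edgeR FDR 0.00199) and Dpp4 by 1.59 ± 0.510 (FDR 0.0318), whereas Zbtb16 rose by 3.41 ± 0.459 (FDR 3.83e-07). The Car4 call was lost on libraries thinned to the smallest total (-1.48, edgeR FDR 0.0715). The Dpp4 call rested on 21 and 6 pooled counts and was lost without d3 replicate 1 or 3 or d4 replicate 1 or 2 of Nr6a1-/- (edgeR FDR 0.0676 to 0.137). Spink1 was at -1.35 ± 0.620 in this step (edgeR FDR 0.110) and was called without Nr6a1-/- d4 replicate 1 (-2.43, FDR 0.0289). S100g was at 0.62 ± 0.432 (edgeR FDR 0.322), was called without Nr6a1-/- d4 replicate 3 (1.13, FDR 0.0295) and turned to -0.49 without Nr6a1-/- d4 replicate 2 (FDR 0.496). Barx1 was not called in any step of Nr6a1-/- cells.

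The step from d4 to d4G divided the 6 genes, and in wildtype cells Gdf11 and pool cannot be told apart in it. In wildtype cells, d4G against d4, 4 genes fell and 1 rose, beside 28.8% of all tested genes called. Spink1 fell by 1.68 ± 0.201 (edgeR FDR 4.03e-08), Dpp4 by 1.04 ± 0.166 (FDR 7.60e-06), Car4 by 0.75 ± 0.120 (FDR 8.46e-06) and Zbtb16 by 0.61 ± 0.210 (FDR 0.0265), with every d4G library below every d4 library. Barx1 rose by 2.37 ± 0.344 (edgeR FDR 1.72e-06), with every d4G library above every d4 library. S100g was at -0.12 ± 0.184 (edgeR FDR 0.663), and its libraries overlapped. Without d4 wildtype replicate 2, Spink1 fell by 1.92 and the other calls held except that of Zbtb16 (-0.51, edgeR FDR 0.124), which was also lost without any 1 of the 3 d4G wildtype libraries (edgeR FDR 0.0601 to 0.0814).

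In Nr6a1-/- cells 1 of the 6 genes was called from d4 to d4G, beside 18% of all tested genes. Car4 rose by 2.86 ± 0.375 (edgeR FDR 2.74e-07), from 9 to 60 pooled counts, with every d4G library above every d4 library. Dpp4 was at 1.00 ± 0.586 on 6 and 11 pooled counts (edgeR FDR 0.330). Zbtb16 was at -0.79 ± 0.329 (edgeR FDR 0.0932) and was called without Nr6a1-/- d4 replicate 2 (-0.97, FDR 0.0480). S100g was at -0.77 ± 0.468 (edgeR FDR 0.279), was called without Nr6a1-/- d4 replicate 3 (-1.28, FDR 0.0234) and turned to 0.34 without Nr6a1-/- d4 replicate 2 (FDR 0.697), so that its direction turned on single libraries. Spink1 was at -0.33 ± 0.854 on 10 and 7 pooled counts and ran from -1.60 to 0.75 with 1 library left out, and no fold is given for Barx1, with 3 and 4.

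The Gdf11 response of Nr6a1-/- cells minus that of wildtype cells was 3.61 ± 0.388 for Car4, 2.05 ± 0.617 for Dpp4, 1.36 ± 0.958 for Spink1, -0.18 ± 0.388 for Zbtb16 and -0.64 ± 0.504 for S100g on the log2 scale. It is the difference of contrasts that chose the genes and has no test. The S100g difference turned to 0.46 without Nr6a1-/- d4 replicate 2, that of Zbtb16 to 0.10 without Nr6a1-/- d4 replicate 1 and to 0.06 without Nr6a1-/- d4G replicate 2, and that of Spink1 was 0.08 without the last library and 2.43 without Nr6a1-/- d4 replicate 1. The Car4 response had opposite signs in the genotypes, so that its levels were closer at d4G (57.1 ± 9.36 and 10.3 ± 2.86 CPM, SD, n = 3) than at d4 (95.8 ± 6.10 and 1.38 ± 0.999 CPM). The Zbtb16 values of the genotypes, -0.61 and -0.79, lay within their standard errors of each other.

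**Figure D3:**
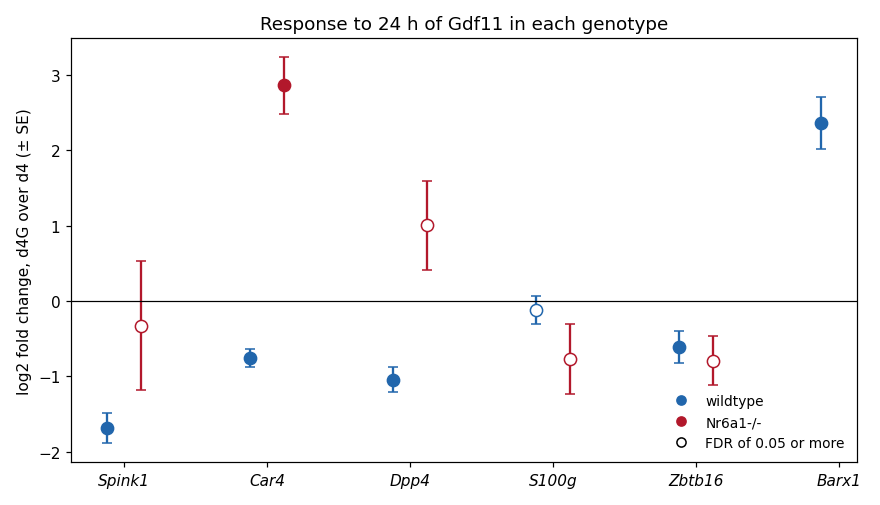
Log2 fold change of d4G over d4 (vertical axis, ± SE) for each gene in wildtype (blue) and Nr6a1-/- (red) cells. Filled points passed an edgeR FDR of 0.05 and open points did not, and Barx1 in Nr6a1-/- cells is left out for its 3 and 4 pooled counts. Car4 lies at -0.75 in wildtype and 2.86 in Nr6a1-/- cells, and Barx1 at 2.37 in wildtype cells.

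The courses of the genes were compared by the root mean square distance of log2 CPM group means over the 10 groups, after centring each gene. Spink1 and Dpp4 were the closest pair of the 6, at 0.63, and were also close within wildtype cells alone (0.27 over 5 groups). S100g and Zbtb16 were the next closest, at 1.12, and Car4 and S100g the farthest apart, at 2.77. Within wildtype cells Car4 was 0.83 from Spink1 and 0.79 from Dpp4, but within Nr6a1-/- cells 1.95 and 1.70. These are descriptions, since the choice of the genes fixes part of each course.

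Outside the 6, among tested genes that averaged 10 CPM or more in any group, the courses nearest to Spink1 were those of Ttr (0.84), the thyroid hormone carrier transthyretin, and Dab2 (0.86), an endocytic adaptor. Dab2 was also nearest to Dpp4 (0.44), followed by the hypoxia-inducible factor Epas1 (0.48). Dab2 stood at 37.1 ± 3.20 CPM in wildtype d4 and 3.70 ± 0.871 CPM in Nr6a1-/- d4 (SD, n = 3), and its Gdf11 value in wildtype cells was -0.36 ± 0.182 (edgeR FDR 0.144). Nearest to Car4 were the sodium pump subunit Atp1b1 (0.99) and the homeobox gene Irx3 (1.07), which were at 28.4 and 14.7 CPM in wildtype d2 and at 2.91 and 0.912 CPM in Nr6a1-/- d4. Nearest to S100g were Wfikkn1 (1.00), an inhibitor of Gdf11 and myostatin, and the hindlimb homeobox gene Pitx1 (1.04). From wildtype d4 to d4G, Wfikkn1 went from 12.9 ± 2.57 to 51.2 ± 5.46 CPM and Pitx1 from 12.0 ± 2.56 to 28.6 ± 5.41 CPM, rises that S100g did not share. Nearest to Zbtb16 were Zic1 (0.54) and Msx1 (0.71), transcription factors of neural and mesodermal patterning, and nearest to Barx1 were Nhsl2 (0.53) and the proteoglycan gene Spock1 (0.58).

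Endoderm markers moved with the genotype as well. Of 15 listed genes, 9 were tested, and 5, 7, 6, 9 and 7 of the 9 were called lower in Nr6a1-/- cells from d2 to d4G, in stage order, with none called higher (edgeR FDR below 0.05). Over all tested genes the share called lower was 2.72%, 3.59%, 6.3%, 9.18% and 4.63%, and the share called higher 1.35%, 2.86%, 4.47%, 9.7% and 3.28%. The summed level ran from 38.9 to 48.3 CPM in wildtype d2, 57.2 to 63.0 in d2.5, 77.7 to 85.6 in d3, 68.5 to 99.0 in d4 and 89.8 to 111 in d4G. In Nr6a1-/- cells it ran from 8.99 to 20.5, 17.5 to 22.2, 17.1 to 19.2, 9.80 to 16.4 and 10.6 to 16.6 CPM, below every wildtype library of its stage. Sox17, an endoderm transcription factor, was at 30.8 ± 3.92 CPM in wildtype d4 and 3.07 ± 2.23 CPM in Nr6a1-/- d4. Of the defining markers, Cer1 was at 0 in every group and Afp in all but the wildtype d2.5 and d4G groups, and in Nr6a1-/- d4 Ttr, Apob and Hnf4a were at 0 too.

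The mean endoderm sum was 3.06-fold higher in wildtype cells at d2, 6.70-fold at d4 and 7.30-fold at d4G. It has no interval, and at d4 the log2 fold changes of its 9 tested markers ran from -7.33 (Ttr) to -1.57 (Hhex). The 6 genes were chosen for their large falls, which favours ratios above that of the sum, so nothing is read from larger ratios. At d4 the pooled ratios of Spink1, Car4, Dpp4, S100g and Barx1 were larger (6.79 for Barx1, with an interval from 2.10) and that of Zbtb16 smaller (2.91). At d4G those of Car4 (5.67) and Zbtb16 (3.28) were smaller and the other 4 larger. The intervals of Car4 (4.31 to 7.56) and Dpp4 (5.17 to 19.7) there held the endoderm value. At d2 that of Dpp4 (2.71, 1.77 to 4.25) was smaller, with an interval that also held it, and that of Spink1 (8.78) larger. The d2 ratio of Car4 was 0.709, the opposite direction. None of the 9 tested endoderm markers was called in wildtype cells between d4 and d4G (edgeR FDR 0.163 for the lowest, Amn), the step in which Spink1 and Dpp4 fell. The part of endoderm cells in the values of the 6 genes was not tested.

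**Figure D4:**
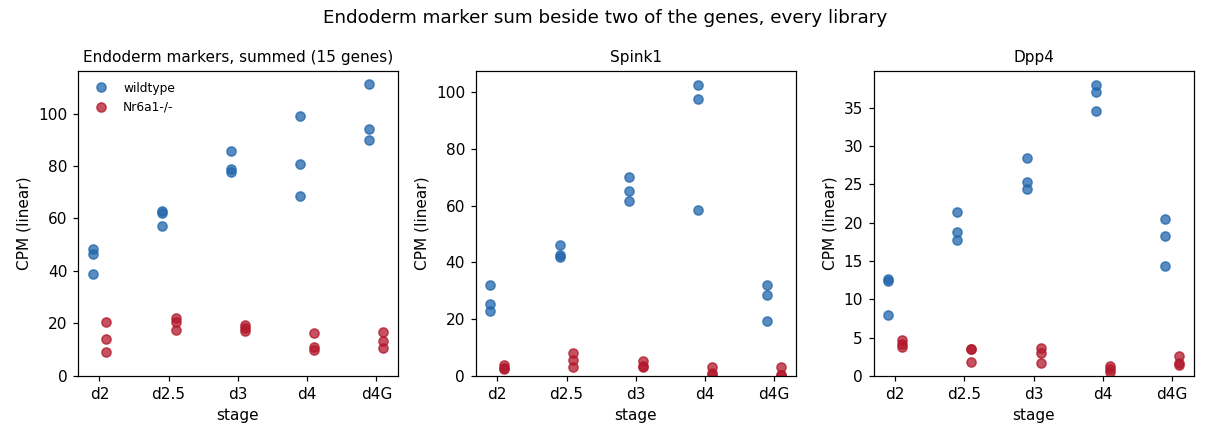
Summed CPM of the 15 listed endoderm markers (left) beside the CPM of Spink1 (middle) and Dpp4 (right) in every library, on linear axes against stage, with wildtype in blue and Nr6a1-/- in red. The wildtype marker sum is 89.8 to 111 CPM at d4G, whereas Spink1 is at 19.5 to 32.0 CPM there after 58.6 to 102 CPM at d4.

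Markers of other cells that the cultures could hold also moved. Of 5 neural progenitor markers, 3 were called lower in Nr6a1-/- d4 and none higher (1 lower without wildtype d4 replicate 2), and of 4 tested paraxial mesoderm markers, 4 were called higher and none lower (3 higher without it), with a sum of 113 ± 10.8 CPM in wildtype and 416 ± 13.9 CPM in Nr6a1-/- d4. At d4, 3 of 7 NMP markers were called higher and 1 lower, and 4 of 7 epiblast markers were called lower. The epiblast count was 1 of 7 without wildtype d4 replicate 2, and the sums of the other wildtype d4 libraries, 85.4 and 88.6 CPM, lay below the 89.2 to 98.8 CPM of the Nr6a1-/- d4 libraries. Fibroblast (feeder) markers, 4 of 8 tested, summed to 29.0 ± 1.78 CPM in wildtype and 19.8 ± 3.27 CPM in Nr6a1-/- d4, with Lum at 0 in all groups but Nr6a1-/- d4. At d2 that order was the other way, at 24.8 ± 3.68 and 40.8 ± 2.37 CPM (SD, n = 3). The part of these cells in the values of the 6 genes was not tested.

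Relatives of the 6 genes were listed by family, and 53 of them were tested. At d4, 5 of the 53 were called lower (9.43%) and 6 higher (11.3%), close to the shares of all genes, and their median log2 fold change was 0.17. Neither of the 2 tested Spink genes was called at any stage. Of 7 carbonic anhydrases, Car3 was higher in Nr6a1-/- than in wildtype cells at d4 (18.3 ± 3.20 and 5.67 ± 0.425 CPM, log2 fold change 1.67 ± 0.240, edgeR FDR 1.67e-06). At d2 it was lower (-0.94 ± 0.221, edgeR FDR 0.00757). Car2, the abundant cytosolic form, was lower in Nr6a1-/- cells at d4 (9.80 ± 2.87 and 26.4 ± 4.42 CPM, -1.46 ± 0.206, edgeR FDR 1.27e-06). Car14, a membrane form, was higher at d3 (1.59 ± 0.277, edgeR FDR 9.93e-05). The carbonic anhydrases thus differed between genotypes in both directions, and Car4 itself was higher in Nr6a1-/- cells at d2 and lower from d2.5 to d4G.

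Of 5 tested dipeptidyl peptidases and relatives, Dpp7 was lower (-0.97 ± 0.267, edgeR FDR 0.00855) and Dpp3 higher (0.63 ± 0.096, FDR 4.47e-06) at d4. Of 6 S100 genes, 2 were called lower at d3 and 3 at d4, with S100a13 at -1.11 ± 0.243 at d3 (edgeR FDR 0.00178). At d4G, S100a1, a calcium sensor best known from muscle, fell from 34.6 ± 6.79 to 10.99 ± 4.25 CPM (-1.61 ± 0.256, edgeR FDR 2.31e-05), and S100a6 was higher (0.86 ± 0.266, FDR 0.0378). Of 33 tested BTB zinc finger genes, none was called lower at d4 and 3 were higher, Zbtb38 (48.4 ± 1.76 to 103 ± 19.4 CPM, 1.09 ± 0.146, edgeR FDR 4.70e-07), Zbtb44 (0.70 ± 0.245, FDR 0.0390) and Zbtb26 (0.63 ± 0.191, FDR 0.0180), opposite to Zbtb16. Over all tested genes, 9.18% were called lower and 9.7% higher at d4, and nothing is read from the BTB zinc finger counts. At d4G, 1 of these 33 genes was called lower and none higher, beside 4.63% and 3.28% of all tested genes. None of the 3 Bar homeobox relatives of Barx1 passed the filter.

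The 10 tested genes nearest to each of the 6 on its chromosome, 5 on either side, were compared with it. Of these 60 neighbours, 5 were called lower and 5 higher at d4, and 5 lower and none higher at d4G (edgeR FDR below 0.05), where 9.18% of all tested genes were lower and 9.7% higher at d4, and 4.63% and 3.28% at d4G. At both stages no neighbour lay at or below its gene. The choice of the genes for large falls favours this order, and nothing is read from it. The median log2 fold change of the neighbours of each gene was within -0.19 and 0.28 at these stages. Exceptions were Cobll1, 2758 kb from Dpp4, at -4.72 at d4 beside -5.27 for Dpp4, and Dpysl3, a neuronal cytoskeletal regulator 407 kb from Spink1, at -2.81 beside -5.79. Galnt3, 3753 kb from Dpp4, was at -2.86 at d4 but not called (edgeR FDR 0.0653). By gene, 3 of the 10 Dpp4 neighbours were called lower and 1 higher at d4, and 3 of the 10 Spink1 neighbours lower and 0 higher at d4G. At d4G Cobll1 was at -2.16 (edgeR FDR 0.0414), Jakmip2 near Spink1 at -2.15 (FDR 0.0151) and Dpysl3 at -0.87 (FDR 1e-05). None of the 10 neighbours of Car4, within 432 kb, was called at d4 or d4G. Earlier, Rpl13-ps1, 153 kb from Car4, was called lower at d2, d2.5 and d3 (-0.67, -0.76 and -0.71, edgeR FDR 0.0107 to 0.0300). No neighbour of Car4 was called higher at those stages.

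**Figure D5:**
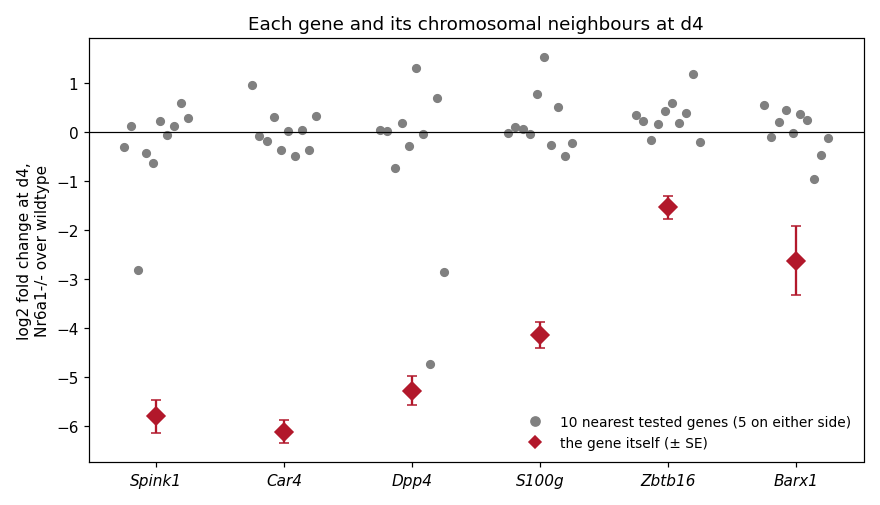
Log2 fold change of Nr6a1-/- over wildtype at d4 (vertical axis) for each of the 6 genes (red diamonds, ± SE) and its 10 nearest tested genes (grey points, in order of position). Cobll1 and Galnt3 near Dpp4 lie at -4.72 and -2.86 and Dpysl3 near Spink1 at -2.81, and most others lie near 0. All lie above their gene, an order that the choice of the genes favours.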

How the data were processed

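RNA of 30 libraries was measured by sequencing from the 3′ end of polyadenylated RNA. Per the submitters' processing notes the authors used STAR, edgeR and the build mm10. The aligner version, annotation, counting tool, strand setting and treatment of molecular identifiers are not given in the sources used here. The deposited values are raw counts, whole numbers for each gene in each library, with no normalisation or pooling. The authors' own stage-by-stage comparisons, with fold changes and p-values, were not used. All columns were matched to samples by name (0 unmatched), 2 symbols occur on more than 1 row, and no replicate pair held identical counts.

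A gene was kept if, in any group, 2 or more libraries exceeded both 10 counts and 2 CPM, which dropped 41985 rows and retained 99.2% or more of the counts of every library. CPM values are scaled by TMM factors. All 10 groups were fitted together in edgeR 4.0.16 (R 4.3.3) with 20 residual degrees of freedom, and the 8 steps within genotypes, the families and the markers were tested with glmQLFit and glmQLFTest, 2-sided, with Benjamini-Hochberg adjustment over all genes. The tests were checked on simulated data. The members, lists and tests were chosen with earlier results of these data known. Named genes were the 6 genes, the 2 nearest courses of each with at least 10 CPM in 1 group, up to 3 called genes of each family by size of change, markers, neighbours that stood out (chosen after their values were seen) and genes that overlap a member. Pseudogenes and symbols that only share a prefix (S100pbp, Zbtb8os) were left out of the families. The study's methods speak of biological replicates and the labels do not say whether these were separate cultures, so p-values measure the spread between these libraries. Count intervals (exact, 95%) cover counting error only. Alternatives were DESeq2 1.42.0 (size factors, and its own test), no scaling factors, no low-count filter, only the libraries compared, thinning to the smallest total, each library left out and a replicate block.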

Additional observations from a re-analysis of the deposited data

Results flagged for a closer look

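In 5 cases every wildtype library moved one way between stages and every Nr6a1-/- library the opposite way, as the levels of one stage lay wholly above or below those of the next. The difference itself was not tested. It is given as the log2 change in Nr6a1-/- cells minus that in wildtype cells. For Dpp4 it was -1.30 from d2 to d2.5 (0.78 in wildtype, -0.51 in Nr6a1-/-) and -2.08 from d3 to d4 (0.49 and -1.59). For Car4 it was -2.61 from d3 to d4 (0.85 and -1.76). With Gdf11, from d4 to d4G, it was 3.61 for Car4 (-0.75 and 2.86) and 2.05 for Dpp4 (-1.04 and 1.00). Opposite moves of this kind were seen for 0.733%, 1.62% and 0.963% of the 12149 tested genes from d2 to d2.5, from d3 to d4 and from d4 to d4G. The genes were chosen on the genotype contrasts that make up these differences. That choice favours such moves, so nothing is read from the shares. The Dpp4 values of Nr6a1-/- cells rest on 6 to 31 pooled counts.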

How the results depend on the processing

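No called fold change of the 6 genes turned its direction under any alternative run. Of the tested fold changes, 539 kept their direction and their side of the threshold, 44 lost the threshold, 8 gained it and 18, none of them called, turned direction. The cause was not tested. Counts of genes called, out of 6, differed as follows.

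In wildtype cells, 5 became 3 from d2 to d2.5 on thinned libraries (4 without the filter, by DESeq2 or with only the libraries compared) and 3 to 5 with 1 library left out. From d2.5 to d3, 3 became 2 without scaling factors, on thinned libraries, by DESeq2 and with any 1 library left out. From d3 to d4, 5 became 3 by DESeq2, 4 without the filter or thinned, and 3 to 5 with 1 library left out, lowest without d3 replicate 2 or 3. From d4 to d4G, 5 became 4 without scaling factors, thinned or by DESeq2, and 4 to 5 with 1 library left out. In Nr6a1-/- cells, 1 became 2 from d2 to d2.5 without the filter or with only the libraries compared (S100g added). From d3 to d4, 3 became 1 on thinned libraries (Car4 and Dpp4 lost), 2 without the filter, by DESeq2 or with only the libraries compared, and 2 to 4 with 1 library left out. From d4 to d4G, 1 became 2 on thinned libraries and 1 to 2 with 1 library left out.

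The turns of direction were all in Nr6a1-/- cells. With 1 library left out, log2 fold changes ran from -0.38 to 0.048 for Zbtb16 from d2 to d2.5 (1.25 on thinned libraries), from -0.30 to 0.19 for Dpp4 and -0.84 to 0.40 for Zbtb16 from d2.5 to d3, from -0.49 to 1.13 for S100g and -1.14 to 0.31 for Barx1 from d3 to d4, and from -1.60 to 0.75 for Spink1, -1.28 to 0.34 for S100g and -0.69 to 1.44 for Barx1 from d4 to d4G. Depth limits Barx1 before d4G, and also Spink1, Car4 and Dpp4 in Nr6a1-/- d4, each with 10 or fewer pooled counts there. Leaving wildtype d4 replicate 2 out of the marker counts was chosen after seeing the data.

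The replicate numbers do not pair the libraries: deviations of same-numbered libraries of different groups correlated at -0.115 to 0.163 (median 0.01), and 12 of 30 libraries correlated best with one of their own number. With the replicate block, 5, 3, 5 and 5 genes were called in the 4 wildtype steps and 1, 1, 3 and 1 in the Nr6a1-/- steps, the counts given without it.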
